A study of Mus musculus with 23 samples.

Results

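The genes described here are the chemokines and chemokine receptors of the mouse, taken as every probe whose symbol in the platform table starts with Ccl, Cxcl, Ccr, Cxcr or Xcr followed by a digit, or is Cx3cl1, Cx3cr1 or Xcl1. The rule found 61 probes for 53 genes, of 24048 probes on the array. They were 40 probes for 35 ligand genes and 21 probes for 18 receptor genes, and 7 genes had more than 1 probe.

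Chemokines are small secreted proteins that direct the movement of leucocytes, and they act through receptors of the G protein-coupled class. The names follow the spacing of the first cysteines in the protein, and a ligand can share its receptor with several others. Homeostatic ligands such as Ccl19, Ccl21, Cxcl12 and Cxcl13 hold lymphocytes and stem cells in their niches, whereas inflammatory ligands such as Ccl2, Ccl7 and Cxcl1 are induced and draw monocytes or neutrophils out of the blood. The spleen is a lymphoid organ in which resident leucocytes carry the receptors, whereas the liver and the heart are built mostly of parenchymal cells.

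Gene expression was measured on 23 Illumina MouseRef-8 arrays, 1 organ sample of 1 mouse per array, from male BALB/c mice of 12 weeks. Control mice drank distilled water and OPP mice drank oil palm phenolics (OPP) at 1500 ppm gallic acid equivalent for 6 weeks, on a normal diet that both groups shared. There were 4 control and 3 OPP livers, and 4 control and 4 OPP samples each of spleen and heart. According to the study's methods, treatment groups were housed in separate cages, so that cage and OPP cannot be told apart, and the samples of best RNA integrity were put on arrays before outliers were removed by clustering. The organs were whole tissue, in which fewer cells of a type and less RNA per cell cannot be told apart. P-values measure the spread between these mice.

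The labelled organs were checked against marker genes. Summed hepatocyte markers were 111000 to 125000 intensity units in the livers and at most 5080 elsewhere, and summed cardiomyocyte markers were 147500 to 162000 in the hearts and at most 177 elsewhere. A few arrays stood apart within their group. Liver control replicates 3 and 4 had summed neutrophil markers of 71600 and 40460, against 2688 and 1292 on the other control livers and 972.2 to 22420 on the OPP livers. Heart control replicate 2 had summed T cell markers of 3391, against 131.2 to 136.9 on the other control hearts. The third OPP liver had 5349 detected probes, where the other livers had 6388 to 7664, and its background intensity was 354 rather than 151.1 to 174.6. Named results that these arrays moved are given with and without them where that was run.

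Levels are log2 normalised intensities, and they compare the same probe between arrays and never different probes. A probe was called detected on an array at a detection p under 0.01, and detected in an organ where this held on at least 3 arrays of either group.

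The ligands Ccl19 (lymphoid), Cxcl13 (B cell attractant), Cxcl1 (neutrophil attractant), Ccl12 and Ccl8 (both inflammatory CC ligands) differed between organs or varied between mice. Promoters are shown for these 5 ligands. Each runs from 250 bases before to 50 bases after the start of the gene, in RefSeq on build GRCm38.p6, read 5′ to 3′ on the strand of the gene. The windows are chr4:42756316-42756615 on the minus strand (Ccl19), and on the plus strand chr5:95956689-95956988 (Cxcl13), chr5:90890995-90891294 (Cxcl1), chr11:82101595-82101894 (Ccl12) and chr11:82114935-82115234 (Ccl8). Capitals mark GGGANNNNCC on either strand, the short form of the site bound by NF-kappa B, and TATAAA, the TATA box, on the strand of the gene.
Ccl19: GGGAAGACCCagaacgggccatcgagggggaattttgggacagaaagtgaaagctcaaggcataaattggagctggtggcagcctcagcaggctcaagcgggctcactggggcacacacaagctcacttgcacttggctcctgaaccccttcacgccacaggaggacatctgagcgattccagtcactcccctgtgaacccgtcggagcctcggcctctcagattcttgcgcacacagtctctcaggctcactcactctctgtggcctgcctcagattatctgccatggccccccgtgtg
Cxcl13: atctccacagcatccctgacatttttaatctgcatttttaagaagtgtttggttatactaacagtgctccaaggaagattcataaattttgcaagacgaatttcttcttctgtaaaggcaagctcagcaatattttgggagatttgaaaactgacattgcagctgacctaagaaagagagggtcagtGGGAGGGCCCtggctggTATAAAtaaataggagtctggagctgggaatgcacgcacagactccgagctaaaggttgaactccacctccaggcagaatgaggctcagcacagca
Cxcl1: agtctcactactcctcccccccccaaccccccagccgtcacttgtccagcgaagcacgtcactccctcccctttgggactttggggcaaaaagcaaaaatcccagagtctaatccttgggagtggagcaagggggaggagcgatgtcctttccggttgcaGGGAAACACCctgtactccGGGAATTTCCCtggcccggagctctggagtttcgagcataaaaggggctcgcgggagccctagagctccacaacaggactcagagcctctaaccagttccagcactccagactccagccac
Ccl12: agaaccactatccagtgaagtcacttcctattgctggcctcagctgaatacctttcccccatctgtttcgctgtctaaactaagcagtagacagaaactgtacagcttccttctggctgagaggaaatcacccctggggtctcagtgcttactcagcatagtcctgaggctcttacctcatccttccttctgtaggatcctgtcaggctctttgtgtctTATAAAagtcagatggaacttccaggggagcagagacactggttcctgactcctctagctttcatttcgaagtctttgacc
Ccl8: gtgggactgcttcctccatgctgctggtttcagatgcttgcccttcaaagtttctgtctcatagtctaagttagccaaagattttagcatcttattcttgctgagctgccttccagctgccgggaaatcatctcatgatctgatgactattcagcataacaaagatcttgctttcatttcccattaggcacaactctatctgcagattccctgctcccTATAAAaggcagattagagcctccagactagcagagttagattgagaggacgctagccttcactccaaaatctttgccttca
The Cxcl1 window held 3 matches to GGGANNNNCC, of which 2 overlapped in a single capital run, those of Cxcl13 and Ccl19 held 1 each, and the Ccl12 and Ccl8 windows held 0. TATAAA was present 1 time each in the Cxcl13, Ccl12 and Ccl8 windows. In all, 40 of the chemokine and receptor genes had a promoter in the table, of which 16 held GGGANNNNCC and 10 held TATAAA. Among all 32851 promoters of the same length the shares were 20.7% and 8.32%. A match is a run of letters and not a site shown to be used.

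The spleen held most of the detected genes. Detected genes numbered 25 in the spleen (16 ligands and 9 receptors), 19 in the heart (17 ligands and 2 receptors) and 8 in the liver (7 ligands and 1 receptor). On single arrays, 24 to 26 of the 61 probes were detected in the spleen, 17 to 25 in the heart and 6 to 12 in the liver. For comparison, 8318 to 8957, 9022 to 9785 and 5349 to 7664 of all probes were detected on the arrays of these organs. Background was 151 to 354 intensity units on the liver arrays, 64 to 84.2 on the spleen arrays and lower still on the heart arrays, and its part in the number of detected liver probes was not tested. The lowest detected signal was 6.34 to 7.40 on the liver arrays, 5.84 to 6.07 on the spleen arrays and 5.59 to 5.82 on the heart arrays, so that a weak signal seen in the heart could lie under the limit in the liver.

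Receptors were almost confined to the spleen. Spleen alone held Ccr3, Ccr6 and Ccr7 among the CC receptors and Cxcr2, Cxcr3, Cxcr5 and Cxcr6 among the CXC receptors, whose carriers include eosinophils, neutrophils, B cells and T cells. Cxcr4, the receptor of Cxcl12, was detected in all 3 organs, and Cx3cr1, the fractalkine receptor of monocytes and macrophages, in spleen and heart. The other 9 receptors (Ccr1, Ccr2, Ccr4, Ccr8, Ccr9, Ccr10, Ccr1l1, Cxcr1 and Xcr1) were detected in 0 organs.

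Ligands had a wider spread over the organs. Detected in all 3 organs were Ccl24, Ccl9, Cxcl12, Cxcl13, Cxcl16 and Cxcl1. The heart alone held 7, namely the inflammatory CC ligands Ccl2, Ccl7, Ccl8, Ccl11 and Ccl12 with Cxcl14 and fractalkine (Cx3cl1). Ccl22, a ligand of Ccr4, was detected in the liver only. The spleen alone held Ccl19, Ccl4, Ccl5, Cxcl9, Cxcl5 and Xcl1, and it shared Ccl21a, Ccl21b, Ccl21c and Ccl6 with the heart. The other ligands were detected in 0 organs (Ccl1, Ccl3, Ccl17, Ccl25, Ccl27a, Ccl28, Cxcl2, Cxcl3, Cxcl10, Cxcl15 and Cxcl17).

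Where a gene had several probes, they often differed in detection. Of the 2 probes each of Ccl4, Ccr6, Cxcr2 and Cxcr5 only 1 was detected in the spleen, and both Ccl25 probes stayed at background. Both Cxcl14 probes were detected in the heart. Of 3 Cxcl12 probes, scl0001073.1_120-S and scl0001241.1_2518-S were detected in every organ and scl020315.4_20-S in none, although the platform table places the first and the last of these on the same transcript. An undetected probe was thus no measure of the gene, and the same limit holds for the genes with 1 probe. In all, 24 of the 61 probes were detected on 0 of 23 arrays.

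**Figure D1:**
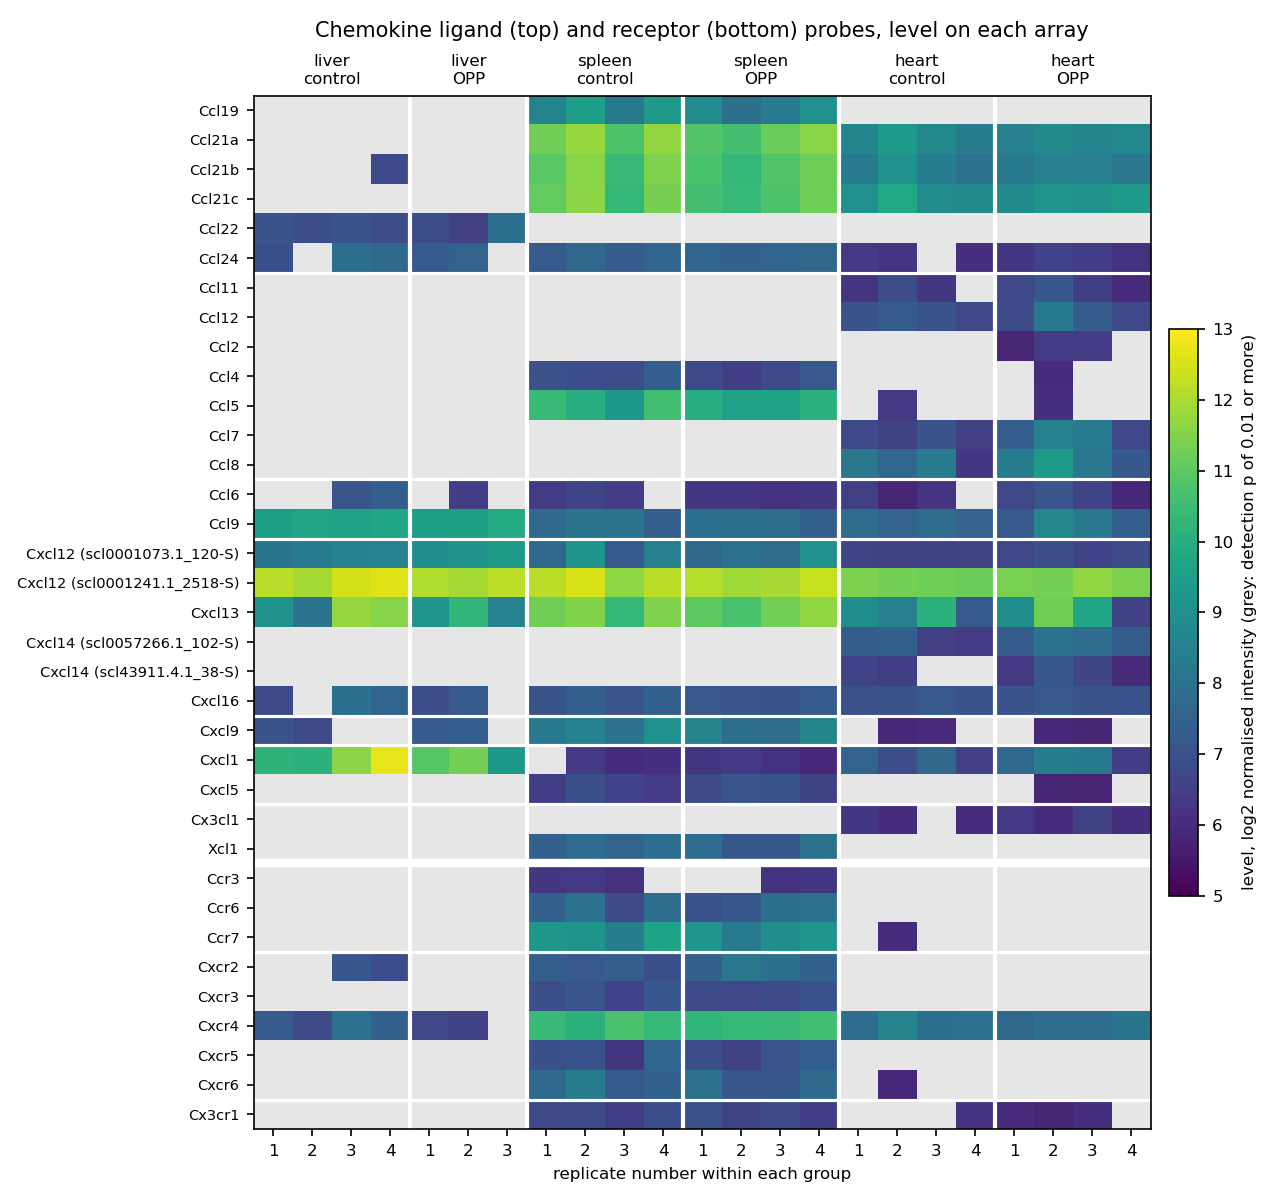
Heat map of the 35 probes detected in at least 1 organ (rows, ligands above the thick white line and receptors below) on each of the 23 arrays (columns, by group and replicate number). Colour is the log2 normalised intensity over all arrays and grey marks a detection p of 0.01 or more, and colours compare arrays along a row only. The receptor rows are filled mainly in the spleen columns.

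Receptors were set beside their known ligands, for 14 of the 18 receptors. Ccr1, Ccr1l1, Ccr6 and Cxcr1 were left out, so that the counts do not cover them. In the spleen 7 receptors (Ccr7, Cxcr5, Cxcr4, Cxcr3, Cxcr6, Cxcr2 and Ccr3) were detected together with at least 1 of their ligands. In the heart this held for 2 pairs, Cxcr4 with Cxcl12 and Cx3cr1 with Cx3cl1, and in the liver for Cxcr4 with Cxcl12 only. Among the 14, ligands without their receptor were seen for 7 receptors in the heart, 5 in the liver and 1 in the spleen. Outside these counts, Ccl9, a ligand of Ccr1, was detected in every organ and Ccr1 in none. For Ccr2, the receptor of inflammatory monocytes, the ligands Ccl2, Ccl7 and Ccl12 were detected in the heart and the single Ccr2 probe on 0 arrays. Of the 14 receptors, Cx3cr1 in the spleen was the one detected without its ligand.

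Control organs were compared in a fit of all arrays (limma, Benjamini-Hochberg adjusted p under 0.05 over all tested probes). Most probes of any kind differed between organs, namely 86.5% between liver and spleen, 83.1% between liver and heart and 82.1% between heart and spleen. Between liver and spleen 20 of 27 tested chemokine and receptor probes differed, of which 3 were higher in the liver (38.7% of all probes) and 17 higher in the spleen (47.8%). Liver and heart differed at 16 of 19 probes, with 6 higher in the liver (34.9% of all) and 10 higher in the heart (48.2%). Heart and spleen differed at 28 of 32, with 6 higher in the heart (41.8% of all) and 22 higher in the spleen (40.4%). Many of these probes entered the test through the organ in which they were detected, which fixes their direction. Among probes detected on at least 3 control arrays of both organs, 3 of 8 differed between liver and spleen (2 higher in the liver), 6 of 8 between liver and heart (5 higher in the liver) and 8 of 12 between heart and spleen (0 higher in the heart).

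Of the 9 receptors tested against the spleen, 7 (Ccr3, Ccr6, Ccr7, Cxcr2, Cxcr3, Cxcr5 and Cxcr6) were tested because the spleen alone had them, so that their direction follows from the filter. All 9 were called higher in spleen than heart, and all but Ccr3 (-0.18, SE 0.14) higher in spleen than liver. Of the pair detected beyond the spleen, Cxcr4 gave a liver minus spleen of -3.01 and a heart minus spleen of -2.31, and Cx3cr1 gave -1.21 (SE 0.23) and -0.98 (SE 0.23), with Cx3cr1 detected on 0 control livers and 1 control heart.

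The OPP arrays gave the same comparison in other samples. There 21 of 26 probes differed between liver and spleen (86% of all probes), 18 of 22 between liver and heart (81%) and 30 of 33 between heart and spleen (82%). All 20 liver-spleen calls and all 16 liver-heart calls of the control arrays were called again in the same direction. They made up 95.2% and 88.9% of the calls on the OPP arrays. Of the 28 heart-spleen calls 27 recurred in the same direction. The exception, Ccr3, was not tested on the OPP arrays, with only 2 OPP spleens detected. Many of these probes again entered through the organ in which they were detected, which fixes their direction. Among probes detected on at least 3 OPP arrays of both organs, 3 of 5 differed between liver and spleen (3 higher in the liver). For liver and heart 4 of 5 differed (4 higher in the liver), and for heart and spleen 10 of 13 (1 higher in the heart). Calls made on the OPP arrays alone were Cxcl12 at scl0001073.1_120-S between liver and spleen, Ccl2 and Cxcl14 between liver and heart, and Ccl2, Cxcl1 and Cxcl14 between heart and spleen. These Cxcl14 calls and those of Ccl2 were at probes not tested on the control arrays (scl43911.4.1_38-S for Cxcl14), and the other Cxcl14 probe was called on both.

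Ligands and receptor of the T cell zone were led by the spleen. Ccl21a, a ligand of Ccr7 made by lymphoid stroma and lymphatic vessels, stood at 11.26, 11.76, 10.76 and 11.71 on the 4 control spleens and at 8.66, 9.31, 8.72 and 8.37 on the control hearts, and it was detected on 0 livers. Every spleen lay above every heart. The log2 difference of heart minus spleen was -2.61 (SE 0.27, adjusted p = 9.3e-09). Where a gene was detected on no array of a group, the fold is given as a bound, set against the lowest detected signal of each array, and for Ccl21a it was at least 24.1-fold higher in spleen than liver (adjusted p = 1.2e-14) and at least 3.96-fold higher in heart than liver (adjusted p = 3.2e-10). Ccl21c behaved alike, with spleen levels of 11.07, 11.60, 10.34 and 11.37 and heart levels of 9.05, 9.80, 8.87 and 8.83. Its bounds were at least 19.9-fold in spleen over liver and at least 5.12-fold in heart over liver. Ccl21b stood at 10.95, 11.56, 10.39 and 11.45 in the spleens and 8.30, 9.04, 8.37 and 7.98 in the hearts. It was detected on 1 of 4 control livers, so that its differences are against a signal mostly not above background, with liver minus spleen at -4.72 (SE 0.25) and liver minus heart at -2.05 (SE 0.24). These were -4.58 and -1.93 without liver control replicate 1. Against the liver, Ccl21a, Ccl21b and Ccl21c were tested through the other organ alone, so that their direction there follows from the filter. They are near-identical copies whose probes may share signal, so that the 3 values are not separate measurements.

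Ccl19, the other Ccr7 ligand, was at 8.62, 9.47, 8.24 and 9.32 on the control spleens and at background in the liver and heart. Ccl19 and Ccr7 were tested through the spleen alone, so that their direction follows from the filter. The Ccl19 bounds were at least 4.38-fold over liver (adjusted p = 2.3e-10) and at least 8.93-fold over heart (adjusted p = 1.2e-11). Ccr7 itself, which guides naive T cells and mature dendritic cells, was at 9.25, 9.14, 8.39 and 9.63 on the control spleens. It was at least 5.0-fold above the liver (adjusted p = 6.3e-13), and heart minus spleen was -3.79 (SE 0.25, adjusted p = 5.7e-12). Of the control hearts only replicate 2 had detected Ccr7, at 6.01, which was also the array with the T cell markers, and without it the difference was -4.01. On the OPP arrays, where Ccr7 was detected on 0 hearts, the spleen was at least 8.82-fold above the heart.

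Ccl5, Ccr6, Cxcl9, Xcl1 and Cxcr3 were also higher in the spleen than in the heart. They were tested through the spleen alone, so that their direction against heart and liver follows from the filter. Ccl5, made by T cells and natural killer cells, was at 10.40, 9.996, 9.25 and 10.57 on the control spleens, at least 9.68-fold above the liver, and 4.66 log2 units above the heart (heart minus spleen -4.66, SE 0.30, adjusted p = 4.6e-12). The sole detected control heart was again replicate 2, at 6.34, so that this difference too is against a group mostly not above background, and without that array it was -4.97. Ccr6, a receptor of B cells and some T cells, was at 7.45, 8.02, 6.87 and 7.87 in the spleens and at least 3.49-fold above the heart (adjusted p = 6.4e-11). Cxcl9, the interferon-induced ligand of Cxcr3, was at 8.22, 8.52, 8.01 and 9.03 in the spleens, and heart minus spleen was -2.71 (SE 0.22, adjusted p = 2.5e-10). Fewer than 3 control hearts had detected Cxcl9, so that its difference is partly against background. On the T cell side, Xcl1 was at least 3.81-fold and Cxcr3 at least 2.33-fold above the heart. Replicate 3 was the lowest control spleen for each of Ccl21a, Ccl21b, Ccl21c, Ccl19, Ccr7, Ccl5, Ccr6 and Cxcl9.

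Cxcl1 was the ligand with the largest measured excess in the liver. Cxcl1, which draws neutrophils through Cxcr2, was at 10.20, 10.15, 11.60 and 12.70 on the control livers, at 5.82, 6.37, 6.04 and 6.11 on the spleens and at 7.56, 6.93, 7.63 and 6.53 on the hearts. The groups did not overlap. Liver minus spleen was 5.08 (SE 0.50, adjusted p = 4.2e-09) and liver minus heart 4.00 (SE 0.50, adjusted p = 1.4e-07). The upper pair of livers was replicates 3 and 4, the arrays with the high neutrophil markers, and without them the differences were 4.09 and 2.99 (adjusted p = 1.4e-07 and 7.6e-06). The neutrophil receptor Cxcr2 was detected on 2 of the 4 control livers, again replicates 3 and 4, and on 0 OPP livers.

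Ccl9 and Ccl22 were also higher in the liver than in both other organs, for Ccl22 a direction that follows from the filter. Ccl9, a rodent ligand of Ccr1, was at 9.54, 9.68, 9.60 and 9.69 on the control livers against 7.73, 8.07, 8.07 and 7.42 on the spleens and 7.82, 7.54, 7.83 and 7.51 on the hearts. Liver minus spleen was 1.80 (SE 0.23) and liver minus heart 1.95 (SE 0.23), with adjusted p of 1.9e-07 and 4.9e-08. Ccl22, a macrophage and dendritic cell product, was at 7.04, 6.91, 7.04 and 6.901 in the control livers, and at least 2.03-fold above spleen and at least 2.33-fold above heart. It was tested through the liver alone and lay near the limit, with the lowest detected signal on those livers at 6.78, 6.68, 6.89 and 6.78. Ccl24, an eosinophil attractant of macrophages, was called higher in liver than heart and not than spleen (-0.20, SE 0.23, adjusted p = 0.411). It was at 6.95, 6.52, 7.89 and 7.73 in the livers and 6.32, 6.22, 5.74 and 6.07 in the hearts. Its liver minus heart difference of 1.19 (SE 0.23, adjusted p = 5.9e-05) was lost when arrays were scaled to a common median (0.46, adjusted p = 0.107), and without livers 3 and 4 it was 0.67 (adjusted p = 0.0049).

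Cxcl12, the stromal ligand that retains stem cells and lymphocytes, was lower in the heart than in the other organs at both detected probes. The control arrays gave 8.11, 8.34, 8.51 and 8.54 in the liver, 7.67, 9.13, 7.26 and 8.49 in the spleen, and the hearts lay at 6.64, 6.57, 6.57 and 6.63, at scl0001073.1_120-S. Liver minus heart was 1.77 (SE 0.29) and heart minus spleen -1.53 (SE 0.29). Probe scl0001241.1_2518-S gave 12.14, 11.91, 12.49 and 12.62 in the liver, 12.16, 12.53, 11.64 and 12.17 in the spleen, with hearts at 11.44, 11.32, 11.22 and 11.22. There liver minus heart was 0.99 (SE 0.16) and heart minus spleen -0.83 (SE 0.16), and all 4 differences had an adjusted p of at most 6.8e-05. Between liver and spleen neither probe passed (0.24, SE 0.29, and 0.16, SE 0.16).

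Ccl8, Ccl12, Ccl7, Ccl11, Cxcl14 and Cx3cl1 were higher in the heart than in the spleen, a direction that follows from the filter. Of these genes the first 4 are inflammatory CC ligands encoded together on chromosome 11. Ccl8 was at 8.17, 7.68, 8.29 and 6.29 on the control hearts and detected on 0 control livers and 0 control spleens, with bounds of at least 1.77-fold and at least 3.14-fold. Ccl12, a rodent ligand of Ccr2, was at 7.09, 7.31, 7.02 and 6.74, with bounds of at least 1.20-fold over liver and at least 2.12-fold over spleen. Ccl7, another Ccr2 ligand, was at 6.75, 6.55, 7.06 and 6.51 and at least 1.69-fold above spleen. Ccl11, the eosinophil attractant eotaxin, was at 6.24, 6.88, 6.25 and 5.77 and at least 1.25-fold above spleen. Against the liver, where Ccl7 and Ccl11 were detected on 0 control arrays, the bound for both did not exceed 1 and no fold is given. Both were tested there through the heart alone, so that a difference from the liver was not shown. Replicate 4 was the lowest control heart for each of these 4 genes. Cxcl14 at scl0057266.1_102-S was at 7.36, 7.49, 6.51 and 6.43, and at least 1.12-fold above liver and at least 1.99-fold above spleen. Cx3cl1, the ligand of Cx3cr1, was detected on 3 of 4 control hearts and was at least 1.04-fold above spleen. Against the liver its bound did not exceed 1. The bounds against the liver start from the higher limit of detection given above for those arrays.

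Cxcl13 and Cxcr4 are described here because of their spread, and they were chosen after their values were seen. Cxcl13, made by follicular stroma for B cells with Cxcr5, was at 11.28, 11.49, 10.31 and 11.45 on the control spleens, at 9.12, 8.09, 11.73 and 11.56 on the livers and at 8.93, 8.49, 10.12 and 7.27 on the hearts. The organs overlapped, with liver replicates 3 and 4 above every spleen. Heart minus spleen was -2.43 (SE 0.83, adjusted p = 0.010), and liver minus spleen (-1.01, SE 0.83) and liver minus heart (1.42, SE 0.82) did not pass. Without liver replicates 3 and 4 liver minus spleen was -2.50 (SE 0.87, adjusted p = 0.012) and liver minus heart turned to -0.09 (SE 0.85), and without heart replicate 2 heart minus spleen was -2.36. Cxcr4 was at 10.41, 10.15, 10.70 and 10.37 in the spleens, 7.31, 6.82, 8.003 and 7.46 in the livers and 7.85, 8.59, 7.92 and 8.02 in the hearts. Its 3 organs fell in the order spleen, heart and liver, and each step passed, with liver minus heart at -0.70 (SE 0.19, adjusted p = 0.0022), although replicate 3 of the liver lay among the hearts.

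**Figure D2:**
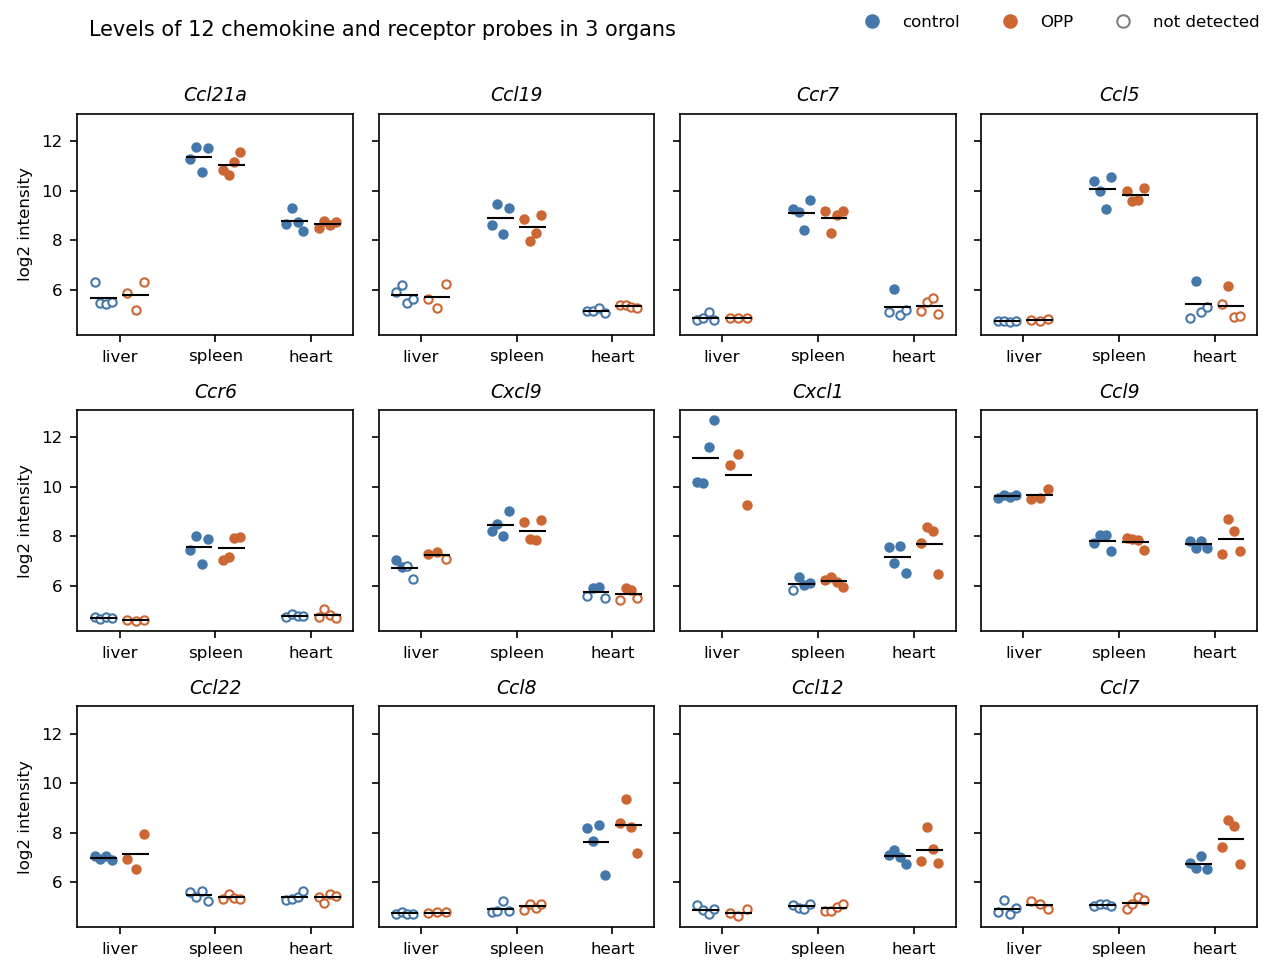
Log2 normalised intensity of 12 chemokine and receptor probes on each array, by organ (x axis), with control arrays in blue, OPP arrays in orange, undetected arrays as open points and the group mean as a bar. Group means of Ccl21a, Ccl19, Ccr7, Ccl5, Ccr6 and Cxcl9 were highest in the spleen, those of Cxcl1, Ccl9 and Ccl22 in the liver, and those of Ccl8, Ccl12 and Ccl7 in the heart, on control and OPP arrays, with many of the lower groups undetected.

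Chemokine and receptor probes had a higher median SD between mice than the tested probes as a whole. The median SD within the control livers was 0.477 for 9 chemokine and receptor probes against 0.219 for all tested probes. Control spleens gave 0.361 for 26 against 0.200 for all, and control hearts 0.370 for 21 against 0.128 for all. On the OPP arrays they were 0.344 against 0.231, 0.333 against 0.139 and 0.355 against 0.146 respectively. Cxcl13 had the highest SD of these probes in the control livers (1.98), the control hearts (1.16) and the OPP hearts (1.97).

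OPP was compared with control within each organ, on levels normalised within that organ, and 0 chemokine or receptor probes reached an adjusted p under 0.05 (0% of all tested probes in each organ). The study called genes at a p under 0.01 from the Illumina Custom error model, which was not run here. At an unadjusted p under 0.01 in limma's fit the calls were 1 of 9 in the liver, 0 of 26 in the spleen and 0 of 21 in the heart. Among all tested probes the shares were 2.92%, 1.69% and 4.61%. Below an unadjusted p of 0.05 there were 2, 1 and 3, against 11.2%, 6.91% and 14.1%. Control and OPP arrays did not overlap at 1, 1 and 0 of these probes, against 12.4%, 3.6% and 7.97% of all. In spleen and heart these counts were close to or under the share among all probes, and in the liver each rests on 1 or 2 of 9 probes.

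In the liver, the stromal ligand Cxcl12 was higher at 1 of its probes. Probe scl0001073.1_120-S was at 8.12, 8.37, 8.55 and 8.58 on the control livers and at 9.01, 9.24 and 9.50 on the OPP livers. Every OPP liver lay above every control liver. The log2 change was 0.84 (SE 0.17, unadjusted p = 0.0010, limma adjusted p = 0.287), and a two-sided exact permutation test gave p = 0.0286, the smallest that 4 against 3 allows. Leaving out any array kept it between 0.72 (without OPP replicate 3, the liver of high background and the highest for this probe) and 0.96 with an unadjusted p of at most 0.0054, and without control livers 3 and 4 it was 1.00. It missed the threshold of 0.01 when arrays were scaled to a common median (0.81, limma unadjusted p = 0.0179) and in a fit of all organs (0.76, unadjusted p = 0.0253).

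The other Cxcl12 probes did not share this change. The platform table places scl0001241.1_2518-S on a different transcript of the gene from scl0001073.1_120-S. Probe scl0001241.1_2518-S was at 12.47, 12.27, 12.79 and 12.90 on the control livers and 12.40, 12.28 and 12.53 on the OPP livers, a log2 change of -0.20 (SE 0.17, unadjusted p = 0.259), and the groups overlapped. The third probe was undetected on every liver. The difference between the responses of the probes was not tested. In spleen and heart the changes at scl0001073.1_120-S were 0.02 (SE 0.38) and 0.17 (SE 0.10), and at scl0001241.1_2518-S -0.06 (SE 0.17) and 0.16 (SE 0.08). Among the markers of endothelial and stromal cells in the liver, 4 of 9 genes were tested and 1 had a positive change at its brightest probe, with sums of 5380 to 9260 on control and 6680 to 6920 on OPP arrays, and Tek, Kdr, Col1a1 and Col3a1 were detected on 0 livers. The stromal proteoglycan gene Dcn had 3 of 4 probes with a positive change, by 0.76 (SE 0.18, unadjusted p = 0.0025) at scl013179.1_84-S, 0.65 (SE 0.25, unadjusted p = 0.027) at scl0003843.1_1-S and 0.53 (SE 0.21, unadjusted p = 0.031) at scl38511.3.1_54-S. Its brightest probe, scl0013179.1_275-S, changed by -0.06 (SE 0.20). The part of these cells in the Cxcl12 change was not tested.

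**Figure D3:**
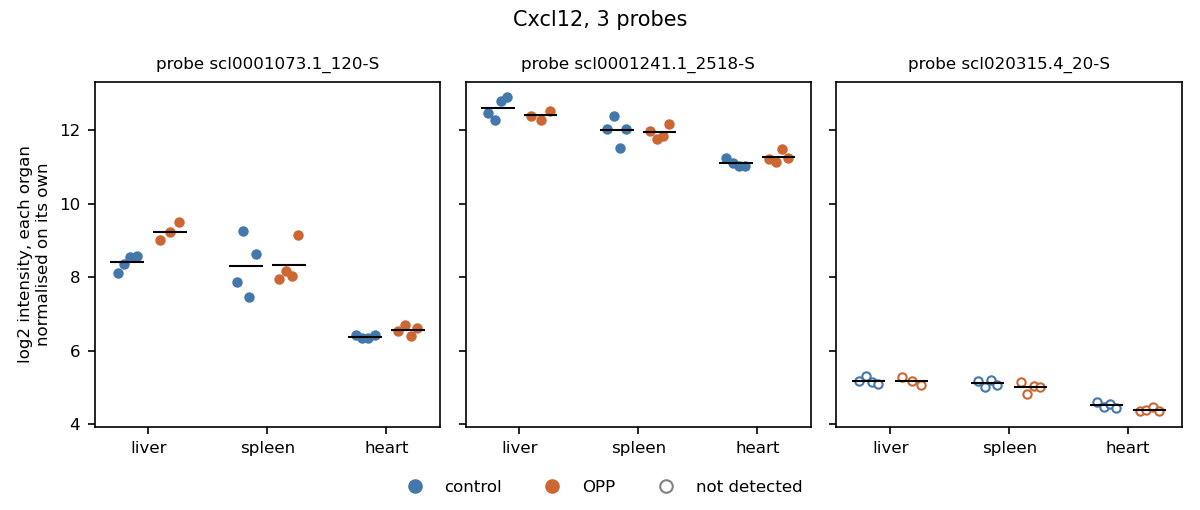
Log2 intensity of the 3 Cxcl12 probes on each array, by organ (x axis), with control in blue, OPP in orange, undetected arrays open and the group mean as a bar. In the left panel the 3 OPP livers (9.01 to 9.50) sit above the 4 control livers (8.12 to 8.58), the middle panel has no such gap, and the right panel is undetected throughout.

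Cxcr4, the receptor of Cxcl12, was at 7.30, 6.84, 8.002 and 7.44 on the control livers and at 6.77, 6.62 and 6.91 on the OPP livers, of which 2 were detected. Control replicate 2 fell within the OPP range. The change was -0.63 (SE 0.27, unadjusted p = 0.048, adjusted p = 0.441, exact permutation p = 0.0857), and without control livers 3 and 4 it was -0.30. This gene was chosen after its values were seen.

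The remaining liver ligands did not pass. Cxcl13 was at 9.24, 8.09, 12.09 and 11.91 on the control livers and 9.29, 10.50 and 8.59 on the OPP livers, and Cxcl1 at 10.44, 10.38, 11.96 and 12.98 against 11.19, 11.68 and 9.39. For both genes control replicates 3 and 4 lay above every OPP liver and replicates 1 and 2 did not. The changes were -0.87 (SE 0.96) and -0.69 (SE 0.72), and without control livers 3 and 4 they were 0.79 and 0.34, with the sign turned. Leaving out single livers gave -1.62 (without control replicate 2) to -0.29 (without control replicate 3) for Cxcl13, and -1.16 (without OPP replicate 2) to -0.01 (without OPP replicate 3) for Cxcl1. Of the 9 liver probes 3 had a positive change and 6 a negative, with a median of -0.20 beside -0.03 for all tested probes, and without those livers 7 were positive and the median was 0.16. Cxcl16, Cxcr4 and Ccl24 were tested because the control livers alone had them on at least 3 arrays, and of the other 6 probes 3 were positive. Of 12 neutrophil markers 5 were tested in the liver and all 5 had a negative change, with Mmp8 detected on 0 arrays, and their part in these changes was not tested.

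In the spleen, the neutrophil receptor Cxcr2 had the lowest p. Probe scl012765.6_0-S was at 7.62, 7.43, 7.63 and 7.14 on the control spleens and 7.66, 8.34, 8.11 and 7.66 on the OPP spleens. The groups did not overlap, by a margin smaller than the spread within either. The change was 0.49 (SE 0.18, unadjusted p = 0.0196, adjusted p = 0.635, exact permutation p = 0.0286, the smallest that 4 against 4 allows), and Cxcr2 was chosen after its values were seen. The other Cxcr2 probe was undetected. Cxcl5 and Cxcl1, both ligands of Cxcr2, changed by 0.32 (SE 0.18) and 0.11 (SE 0.17). All 12 neutrophil markers were tested in the spleen and all 12 had a positive change, with a median of 1.11 and sums of 35400 to 110000 on control and 94900 to 153000 on OPP arrays, and 0 passed at their brightest probe. At a dimmer probe the granule enzyme gene Mpo was at an unadjusted p of 0.0032 (1.26, SE 0.33). Their part in the Cxcr2 value was not tested.

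The lymphoid ligands of the spleen had negative changes within the spread between mice. Ccl19 changed by -0.36 (SE 0.28), Ccl21c by -0.32 (SE 0.24), Ccl21a by -0.29 (SE 0.23) and Ccl21b by -0.28 (SE 0.23), with unadjusted p of 0.21 to 0.25. Ccr7 changed by -0.19 (SE 0.25), and Cxcl13 and Cxcr5 by 0.04 (SE 0.25) and 0.05 (SE 0.28). The effector T cell genes Ccl5, Ccl4, Cxcr3 and Cxcr6 and the ligand Cxcl9 were all negative, from -0.12 to -0.22. Of the 26 spleen probes 8 were positive and 18 negative, with a median of -0.10 beside -0.002 for all, and with arrays scaled to a common median 12 were positive. Without Ccr3, detected on at least 3 arrays in 1 group only, 8 of 25 were positive. Leaving out control replicate 2, the highest array at 13 of the 26 probes, or OPP replicate 2 also gave 12. Summed T cell markers were 1820 to 3710 on control and 1770 to 3000 on OPP spleens (1 of 6 tested genes positive) and summed B cell markers 3250 to 7820 and 3520 to 5980 (2 of 5 positive), with Cd247 and Cr2 detected on 0 spleens. Among the endothelial and stromal markers 2 of 8 were positive, with sums of 2280 to 3840 and 2070 to 2980 and Kdr undetected, and the collagen gene Col3a1 was lower (-0.63, SE 0.16, unadjusted p = 0.0031). The part of these cells in the lymphoid ligands was not tested.

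Pf4 and Ppbp, the chemokines of platelet granules, have symbols outside the rule and are given beside it. Ppbp was at 11.21, 9.85, 10.34 and 10.25 on the control spleens and 11.21, 11.76, 11.53 and 12.11 on the OPP spleens, a change of 1.24 (SE 0.27, unadjusted p = 0.0010, adjusted p = 0.474). Pf4 was at 12.19, 10.81, 11.70 and 11.22 against 12.15, 12.42, 12.09 and 12.30, a change of 0.76 (SE 0.25, unadjusted p = 0.0117). Control replicate 1 stood among the OPP spleens for both genes. The 6 tested of 10 platelet markers were all higher at an unadjusted p under 0.01, beside 1.69% of all tested spleen probes under that p. They were led by Vwf (1.33, SE 0.24), Clec1b (1.06, SE 0.25), Gp5 (1.26, SE 0.30) and Itga2b (1.20, SE 0.31), and 0 passed after adjustment. Their sums were 628 to 2020 on control and 2360 to 3530 on OPP arrays, with Itgb3 undetected. The study had already named Vwf, Gp5 and Itga2b among the genes higher in these spleens. In the heart 1 of Pf4 and Ppbp was positive and 1 negative with a median of -0.11, and in the liver neither was tested.

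In the heart Ccl7 had the lowest p, without passing the threshold. Ccl7 was at 6.55, 6.33, 6.86 and 6.30 on the control hearts and 7.21, 8.33, 8.09 and 6.52 on the OPP hearts. OPP replicates 1, 2 and 3 lay above every control and OPP replicate 4 lay among them. The change was 1.03 (SE 0.33, unadjusted p = 0.0109, adjusted p = 0.220, exact permutation p = 0.0857). Ccl2, the main monocyte attractant and chosen after its values were seen, was undetected on every control heart (5.06, 4.79, 5.31 and 4.72) and detected on 3 OPP hearts (5.59, 6.17, 6.21 and 4.87, the last undetected). The fit gave an unadjusted p of 0.0212 (adjusted p = 0.271, exact permutation p = 0.0857), and the fold was at least 1.19.

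Cxcl14, a ligand of epithelium and connective tissue, was measured by 2 probes with the same direction. At scl0057266.1_102-S it was at 7.17, 7.31, 6.29 and 6.21 on the control hearts and 7.14, 7.85, 7.64 and 7.16 on the OPP hearts, a change of 0.70 (SE 0.26, unadjusted p = 0.0214, exact permutation p = 0.171), and the groups overlapped. Probe scl43911.4.1_38-S changed by 0.50 (SE 0.31, unadjusted p = 0.137), with 2 control and 4 OPP hearts detected.

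The other inflammatory CC ligands overlapped between the groups. Ccl8 was at 7.99, 7.49, 8.10 and 6.06 on control and 8.20, 9.13, 8.03 and 6.99 on OPP hearts (0.68, SE 0.48). Ccl12 was at 6.895, 7.12, 6.82 and 6.53 against 6.64, 8.06, 7.15 and 6.56 (0.26, SE 0.28), and Ccl11 at 6.01, 6.68, 6.02 and 5.48 against 6.55, 6.99, 6.26 and 5.71 (0.33, SE 0.28). In each of the 3 genes OPP replicate 2 was the highest heart. Cxcl13 was the most variable, at 8.72, 8.30, 9.88 and 7.07 against 8.75, 11.07, 9.47 and 6.34 (0.42, SE 0.85). The homeostatic Ccl21a, Ccl21b and Ccl21c were between -0.11 and -0.03, and Cxcr4 was at -0.22 (SE 0.16).

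**Figure D4:**
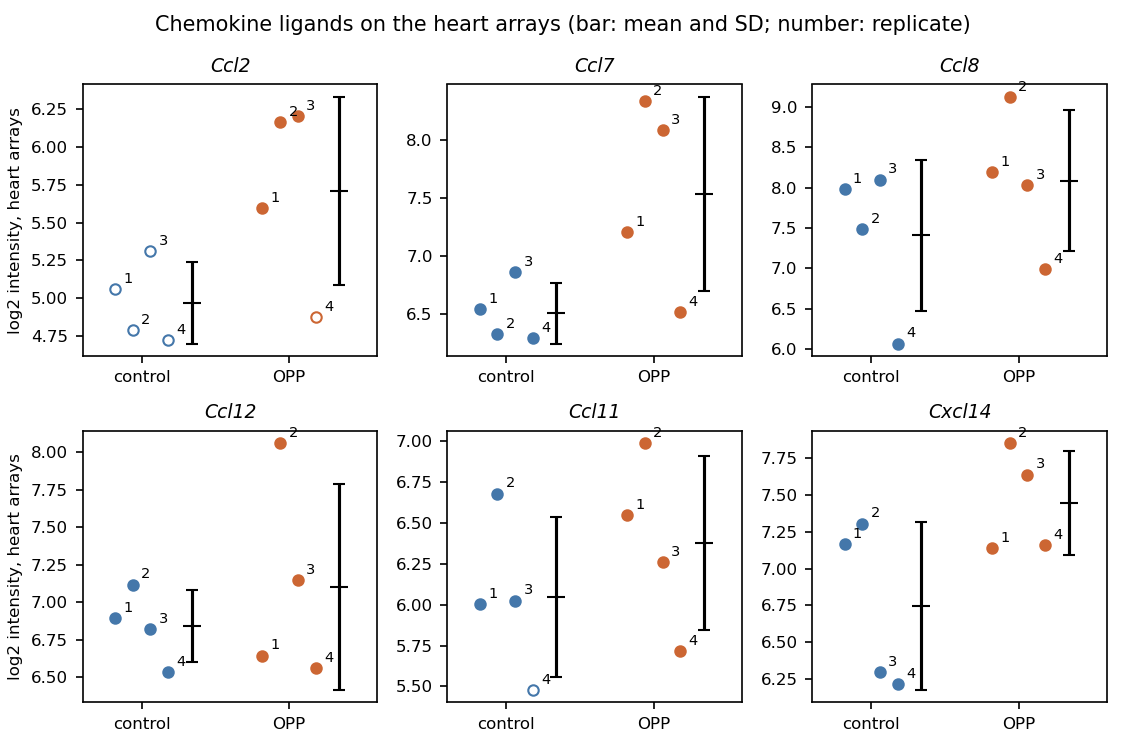
Log2 intensity of 6 ligands on the heart arrays, normalised within the heart, for control (blue) and OPP (orange), with the replicate number beside each point, open points undetected and the bar giving mean and SD. OPP replicates 2 and 3 are above the controls for Ccl7 (8.33 and 8.09 against at most 6.86), and OPP replicate 4 is not.

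Positive changes were the more frequent in the heart. Of 21 probes 17 were positive and 4 negative, with 16 of 19 among the ligands, beside 51.1% positive among all tested probes. Ccl2, Cx3cr1 and Cxcl14 at scl43911.4.1_38-S were tested because the OPP hearts alone had them on at least 3 arrays, which favours a positive change, and of the other 18 probes 14 were positive. The median was 0.26 (also 0.26 with Ccl2 at its bound) beside 0.004 for all. All 5 inflammatory CC ligands, both rodent myeloid ligands (Ccl6 and Ccl9) and all 6 CXC probes (4 genes) of the homeostatic and other group were positive. The 4 negative probes were 3 of the 4 homeostatic and tissue CC ligands (median of the 4 -0.05) and the CXC receptor Cxcr4. With arrays scaled to a common median 16 of 21 were positive with a median of 0.16, beside 22.1% and -0.12 for all probes. These probes are not independent of each other, since OPP replicate 2 was the highest heart at 13 of the 21 and control replicate 4 the lowest at 12.

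The count depended on single hearts. Without OPP replicate 2, 13 were positive and 8 negative with a median of 0.13, and Ccl12 turned to -0.060. Leaving out OPP replicate 4 brought 4 genes to an unadjusted p under 0.01, namely Ccl7 (1.37), Ccl2, Cxcl1 and Ccl6. Without control replicate 2, the array with the T cell markers, 19 were positive and Cxcl14 at scl0057266.1_102-S passed with 0.89. That array was also the highest heart for Ccl21a, Ccl21b, Ccl21c and Cxcr4.

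Other cell markers moved with the heart arrays. Summed macrophage markers were 2279, 1906, 2266 and 1609 on the control hearts and 1722, 3142, 2268 and 1674 on the OPP hearts, with OPP replicate 2 the highest, 4 of 5 tested genes positive, and Clec4f and Marco undetected. Summed neutrophil markers were 904.7, 1314, 1869 and 299.4 against 1741, 2121, 2876 and 410.9, with 6 of 6 tested genes positive and Ngp, Elane, Mpo, Prtn3, Ctsg and Mmp8 undetected. Replicate 4 was the lowest of each group in both sums. Summed cardiomyocyte markers were 147500 to 152300 on control and 157700 to 162000 on OPP hearts, with 6 of 6 positive. Myh6 was at 0.25 and Actc1 at -0.31 at a second probe, both at an unadjusted p under 0.01. Summed hepatocyte markers were 533 to 901 on control and 410 to 1940 on OPP hearts, with Alb, Tat, F2 and Fgb undetected. Apoa1 was at -0.40 (unadjusted p = 0.0095). The highest hepatocyte sum was that of OPP replicate 2 (1937), against 410 to 557 on the other OPP hearts. That array also had summed B cell markers of 452.7, against 122.4 to 194.4 on the other hearts. Its summed T cell markers were 255.9, against 119.4 to 202.9 on the other OPP hearts. Background was 56.6 to 61 on control and 49.6 to 54.2 on OPP hearts, without overlap. Without any background correction 17 of 21 probes were positive. That fit used the same arrays with the same difference in background, so that it cannot decide the part of background, which was not tested. The part of these cells in the heart ligands was not tested.

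**Figure D5:**
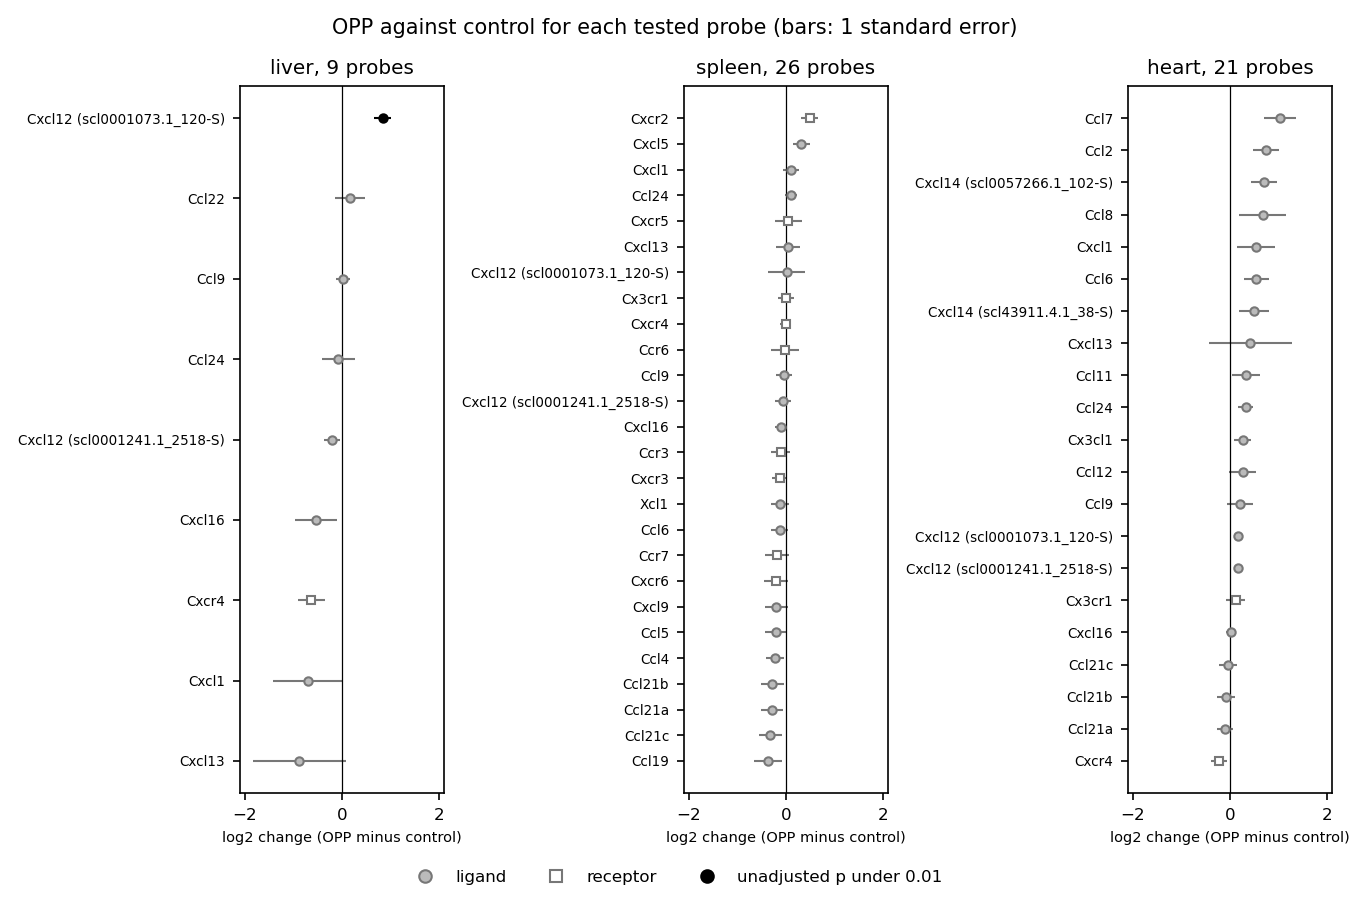
Log2 change of OPP minus control (x axis, bars 1 standard error) for each tested probe, sorted within liver (9 probes), spleen (26) and heart (21), with ligands as circles and receptors as squares. One probe of Cxcl12 in the liver has an unadjusted p under 0.01, and 17 of 21 heart probes lie to the right of 0 against 8 of 26 in the spleen and 3 of 9 in the liver.

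The OPP responses of the organs were compared by an interaction term in the fit of all arrays. No chemokine or receptor probe reached an unadjusted p under 0.01, among 8 tested for liver against spleen, 8 for liver against heart and 13 for heart against spleen, beside 5.88%, 4.24% and 0.721% of all probes. Under an unadjusted p of 0.05 there was 1 of these 29 tests, Cxcr4 for liver against spleen, beside 15.4%, 13.2% and 2.76% of all probes. It had a difference of -0.67 (SE 0.28, unadjusted p = 0.027, adjusted p = 0.252) from a liver change of -0.68 and a spleen change of -0.004. It was -0.86 without liver control replicate 2 (unadjusted p = 0.0026), -0.47 without liver control replicate 3 (unadjusted p = 0.068) and -0.58 without liver OPP replicate 2 (unadjusted p = 0.071). For Cxcl12 at scl0001073.1_120-S, the response in liver differed from that in spleen by 0.75 (SE 0.43, unadjusted p = 0.096) and from that in heart by 0.59 (SE 0.43, unadjusted p = 0.180), so that a difference between organs was not shown.

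Downstream of the receptors, 44 of 51 listed genes of chemokine signalling (G protein subunits, receptor kinases, arrestins, regulators of G protein signalling, phosphoinositide kinases and Rac activators) were on the array. In the spleen 35 were tested, of which 31 had a positive change with a median of 0.11, and 3 were higher at an unadjusted p under 0.01. Of all tested spleen probes 49.3% were positive, with a median of -0.002, and 1.69% were under that p. In limma's fit they were Rgs18, a regulator of G protein signalling in platelets and myeloid cells (0.90, SE 0.26), the Rac activator Tiam1 (0.33, SE 0.10) and the haematopoietic GTPase Rac2 (0.25, SE 0.08), with unadjusted p of 0.0055, 0.0086 and 0.0094. In the liver 7 of 15 and in the heart 10 of 25 were positive and 0 passed. None passed the adjusted threshold. These genes are not independent of each other, and the list was run under the main processing only. With arrays scaled to a common median 67.9% of all tested spleen probes were positive, with a median of 0.06. The part of platelets and neutrophils, whose markers had positive changes in the spleen, was not tested. Of 6 atypical receptors and relatives, which bind chemokines or related ligands, 1, 3 and 2 were tested in liver, spleen and heart, and 0 passed.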

How the data were processed

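Gene expression was measured in liver, spleen and heart of control and OPP mice on 23 arrays. The deposited intensities were the mean bead signal of each probe before normalisation, with background, as exported by the authors with BeadStudio 1.5.1.3 (submitters' processing notes). The authors' software also gave a detection p-value per probe and array, from its rank among the negative controls, deposited as exported. A second set of deposited intensities had been background subtracted and rank invariant normalised by the authors and scaled to 1 control array of each organ, and it served as an alternative within an organ only.

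From the intensities before normalisation, background was removed with limma 3.58.1 (nec with the detection p, offset 16, in R 4.3.3), followed by quantile normalisation and log2, within each organ for OPP against control and over all 23 arrays for organs and interactions. A probe entered the test if 3 or more arrays of a group reached a detection p under 0.01. The test was limma's moderated fit (lmFit, eBayes, trend in the variance), and p-values were adjusted by Benjamini-Hochberg over every probe tested. Single probes had a two-sided exact permutation test. Arrays of different organs were taken as independent, because the labels do not link them to a mouse. The steps were tested on simulated data. The number of arrays limits the precision.

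Probe symbols came from the platform table, and all 61 chemokine and receptor probes were matched by Entrez identifier with 0 changed symbols. No protein sequences were used here. Lists (markers of neutrophils, platelets, B cells, T cells, macrophages, endothelial and stromal cells, hepatocytes and cardiomyocytes, chemokine signalling, platelet chemokines, atypical receptors) were summed on the linear scale and counted at each gene's brightest tested probe. The members, lists and tests were chosen with earlier results of these data known. Named were every probe at an unadjusted p under 0.01 for OPP with the other probes of its gene, the 5 largest called differences in each direction between control organs, and up to 4 genes per list at p under 0.01. Other genes named with values were chosen after those were seen.

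Alternatives tried were the values normalised by the authors, median scaling, no background correction, no detection filter and detection on every array of either group. An unpaired t-test, array weights, all organs in 1 fit and only the arrays of the 2 organs compared were also tried. So were a block for the replicate number and leaving out every array in turn. A fit without liver control replicates 3 and 4 and counts over the probes detected in both groups compared were chosen after seeing the data.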

Additional observations from a re-analysis of the deposited data

Results flagged for a closer look

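Ccl9 in the spleen had a low array in the OPP group, where replicate 4 was at 7.65 and the other OPP spleens were at 8.05 to 8.13. Only the chemokine and receptor probes named by the rule above, with those of Ccl2, Cxcl13, Cxcr2 and Cxcr4, were screened. Among their 72 groups of 4 arrays the Ccl9 group was the 1 with an end value that far from the rest. By chance about 1 in 20 groups falls beyond the critical value used (Dixon's, at 95%).

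Summed T cell markers on heart control replicate 2 were 3391, against 131.2 to 136.9 on the other control hearts. This was 1 of 40 marker sums of 4 arrays that stood out. The same array was the only control heart with detected Ccr7 and Ccl5 and was the highest heart for Ccl21a, Ccl21b, Ccl21c and Cxcr4.

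The Cxcr4 changes in liver and spleen differed by -0.67 on the log2 scale in the interaction test (unadjusted p = 0.027 by limma), which did not pass after adjustment (adjusted p = 0.252), from a change of -0.68 in the liver and -0.004 in the spleen. It was 1 of 29 interaction tests of chemokine or receptor probes and the only one under an unadjusted p of 0.05, beside 15.4% of all probes between these organs. Without liver control replicate 2 it was -0.86 (unadjusted p = 0.0026), and without liver control replicate 3 -0.47 (unadjusted p = 0.068).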

How the results depend on the processing

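Of the counts under the alternatives 226 stayed within 1.5 times the reported count and 18 moved. Of the values of single probes 685 kept their direction and side of the threshold, 3 lost and 14 gained the threshold, and 13 turned. At an unadjusted p under 0.01 the liver count of 1 was 0 with median scaling, and in the fit of all organs the 1 liver probe was Cxcr4 in place of Cxcl12. In the heart the count of 0 became 1 without the detection filter, with detection on every array and with array weights (Ccl7 each time), 3 with all organs in 1 fit and 3 with the replicate block (Ccl2, Ccl7 and Cxcl14), and in the spleen it became 1 without the filter (Ccr4). Leaving out each array gave 0 to 4 in the heart, the highest without OPP replicate 4 and 1 without control replicate 2. For the difference between liver and spleen responses it gave 0 to 1, the highest without liver control replicate 2 (Cxcr4).

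The number of probes with a positive change without the filter, with all 61 tested, was 24 for liver, 24 for spleen and 41 for heart, and it was 5 in the liver with array weights and 7 without liver control replicates 3 and 4. With array weights Cxcl13 in the liver turned to 0.24 and Cxcl1 to 0.33, and without those control livers to 0.79 and 0.34, with Cxcl12 at scl0001241.1_2518-S at 0.035. In the spleen Cxcl12 turned to 0.027 at that probe with median scaling and to -0.38 at scl0001073.1_120-S with array weights, and leaving out each array gave -0.26 to 0.34 at scl0001073.1_120-S and -0.21 to 0.078 at scl0001241.1_2518-S. Ccl12 in the heart ranged from -0.060 to 0.44 when each array was left out.

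Between organs, calls without the filter were 33 for liver against spleen on control and 33 on OPP arrays, and 26 for liver against heart on control arrays. Median scaling moved the median of all probes from -0.23 to -0.79 for liver against spleen and from -0.28 to -0.86 for liver against heart, so that the share of all calls higher in the liver went from 44.7% to 31.2% and from 42% to 25.8%. The split of the chemokine and receptor calls went from 3 against 17 to 3 against 20, and from 6 against 10 to 5 against 11. The authors' values were not run between organs because each organ was scaled to its own array. Same-numbered control and OPP arrays correlated in their deviations at 0.02 to 0.07 in the liver, -0.29 to 0.32 in the spleen and 0.01 to 0.45 in the heart, so that the numbers were not taken as pairs, and the block gave counts of 1, 0 and 3. The cause was not tested for any of these. Ligands at low signal, such as Ccl2 in the heart, are bounded by background.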
